A study of Mus musculus with 6 samples.

Results

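The cells described here are the neurons that the authors' annotation of olfactory bulb neurons names n12-GC-6, a cluster of granule cells (GC) marked by Tpbg and Crhr1. All cells with that name were taken, which gave 237 of the 21746 neurons in 18 annotated types and of the 51426 annotated cells of all kinds. The counts are of unique molecular identifiers (UMIs), so each stands for 1 captured transcript molecule, and levels are given per 1000000 UMIs (CPM), summed over the cells of a type in a library. Because the clusters were made from the expression of these same cells, every comparison of n12-GC-6 with another type is a description without a test, and tests were made only between conditions.

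Granule cells are inhibitory interneurons without an axon. They release GABA from their dendrites onto mitral and tufted cells, the excitatory output neurons of the bulb, at synapses where the same contact also brings them glutamate. New granule cells are added through adult life from precursors that migrate into the bulb, and many survive or die according to olfactory activity. Tpbg encodes 5T4, a membrane glycoprotein with leucine-rich repeats that is known to shape the dendrites of a subset of superficial granule cells. Crhr1 encodes a receptor for corticotropin-releasing hormone (CRH), a peptide that acts locally in the bulb on granule cells, and Crhbp encodes a secreted protein that binds CRH.

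The study asked how olfactory activity alters the neurons added to the adult bulb. The mice were wild-type C57BL/6NJ, aged 14 weeks, in 3 groups of 2 libraries each. In the naris occluded group the nasal airway was plugged on 1 side, and the study took the occluded side as the deprived sample. In the olfactory trained group water-deprived mice learned to tell a rewarded odor from an unrewarded one. Both treatments ran over 6 weeks. The labels describe the control mice as not manipulated, whereas the study's text describes controls in more than one way, so whether control and naris occluded tissue shared mice is not settled here. Each library was a pool of 3 mice, replicate 1 of males and replicate 2 of females, so the spread between pools includes any difference between the sexes. With 2 libraries in each of 2 groups, an exact permutation test of a single value cannot give a p under 0.333, and tests over many genes or clusters therefore borrow the spread across features. In the fits of genes, the borrowed spread had a weight of 58.8 degrees of freedom, against 3 from a gene's own libraries. A p-value of a gene thus rests mostly on the spread shared across genes.

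The libraries held 56 and 33 n12-GC-6 cells in control, 37 and 36 in naris occluded, and 53 and 22 in olfactory trained, for replicates 1 and 2. Summed over these cells, a library gave between 77740 and 204794 UMIs. The median n12-GC-6 cell had 3533 UMIs and 1849 genes, the highest of the 18 types, against 2110 UMIs in n11-GC-5, which was next in depth. In no n12-GC-6 cell were fewer than 1301 UMIs counted. The median share of mitochondrial UMIs was 6.35%, the lowest of the 18 types. In the annotation of the whole bulb, made before the neurons were clustered again, 230 of the 237 cells (97.0%) lay in the cluster N10, whose neurons were for 79.4% n11-GC-5 and for 11.8% n12-GC-6. Of the n12-GC-6 barcodes, 10 also occurred in another library, and 2 of those were shared between n12-GC-6 cells.

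The name was checked against listed markers. The genes of inhibitory neurons were present in every library: Gad1, which makes GABA, stood at 2344 ± 263 CPM (mean ± SD over 6 libraries, as in all values given this way), and Meis2, a transcription factor of bulb interneurons, at 2027 ± 113 CPM. Slc32a1, which loads GABA into vesicles, stood at 356 ± 81.9 CPM. The listed Dlx1, Dlx2 and Dlx6 stood at 186, 114 and 56.2 CPM. Against the median of the 6 other granule clusters, Gad1, Gad2, Meis2 and Slc32a1 were higher (log2 ratios 1.12, 1.31, 0.41 and 0.26). Dlx1, Dlx2 and Dlx6 were not (-0.37, -0.23 and -0.01). Among genes of other cells, the markers of mitral and tufted cells summed to 21.5 CPM (libraries 9.77 to 39.9), with Slc17a6 at 0, and those of olfactory sensory neurons to 472 CPM (303 to 673) against 1055 CPM over the 6 other granule clusters, with Cnga2 at 0. The oligodendrocyte genes Mag and Mog were at 0, as were Pdgfra and Olig2 of their precursors, while Mbp stood at 471 CPM (275 to 650) against 1064 CPM in the other granule clusters. A count of 0 among the 843032 UMIs of n12-GC-6 allows a level of up to 3.56 CPM (3 counts, counting error only). Marker genes of astrocytes summed to 175 CPM (77.2 to 284) against 422 CPM in the other granule clusters, those of endothelium to 58.0 against 119 CPM, of mural cells to 53.8 against 92.2 CPM, of microglia to 102 against 136 CPM and of red blood cells to 87.6 against 122 CPM. Olfactory ensheathing cell markers were at 819.5 CPM (424 to 1719) against 743 CPM, of which Npy, a peptide gene that some neurons also express, made up 674 CPM. Dopaminergic markers were higher, at 66.1 against 35.1 CPM, nearly all of it Th (65.3 ± 32.5 CPM, 12.9 to 100.1 for the sum by library), with Ddc at 0. Against n11-GC-5 alone Th was lower, with a log2 ratio of -1.14. In cells with at least 3000 UMIs this ratio was -1.56, and Th was lower in 6 of 6 libraries. The name of an inhibitory neuron was thus borne out by the markers, with Tpbg as described next.

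Tpbg was highest in n14-GC-7 and n12-GC-6, and lower levels were found in n07-GC-2 and n10-GC-4. Its level was 409.5 ± 54.1 CPM, with the 6 libraries between 339.6 and 479.9 CPM. Only n14-GC-7, at 455 ± 64.7 CPM, was higher on average, and the libraries of both types overlapped. Next came n07-GC-2 at 205 ± 55.0 CPM, whose highest library (274 CPM) lay under the lowest of n12-GC-6, and n10-GC-4 at 104 ± 57.4 CPM. In n11-GC-5, the type most like n12-GC-6 over all genes, Tpbg stood at 18.4 ± 6.12 CPM. A Tpbg UMI was seen in 135 of 237 n12-GC-6 cells (57.0%, exact Clopper-Pearson 95% interval 50.4% to 63.4%, counting error only), which held between 1 and 11 UMIs each. In shallower types the share was 11.4% in n07-GC-2 (413 of 3608 cells, median 882 UMIs) and 20.3% in n14-GC-7 (138 of 679, median 690 UMIs). It was 3.42% in n11-GC-5 and 1.25% in olfactory sensory neurons (n01-OSNs), at a median of 808.5 UMIs a cell in the latter. The part of free RNA in these shares was not tested. When each cell was thinned to 1000 UMIs, with shallower cells left out (0, 112, 2335, 638 and 828 cells), the shares were 28.9% in n12-GC-6, 1.62% in n11-GC-5, 17.7% in n07-GC-2, 23.6% in the 41 n14-GC-7 cells left and 0.727% in n01-OSNs.

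The receptor for CRH was shared more widely. Crhr1 stood at 88.4 ± 13.5 CPM in n12-GC-6, with rank 4 among the 18 types, after n07-GC-2 at 129.5 ± 8.78 CPM, n06-Transition at 126 ± 15.4 CPM and n05-PGC-2 at 90.8 ± 19.4 CPM. The values of n05-PGC-2, n12-GC-6 and n14-GC-7 (85.2 ± 23.9 CPM) lay within one another's spread, whereas those of n07-GC-2 all exceeded the highest n12-GC-6 library (112 CPM). Crhbp had its highest mean in n12-GC-6, at 149 ± 62.9 CPM, but its libraries ranged from 95.8 to 267 CPM and overlapped those of n14-GC-7 at 111 ± 46.1 CPM. No Crh UMI was found in n12-GC-6. Crh, the ligand, was highest in n17-M/TC-3 at 186 ± 156 CPM and n18-EPL-IN, the interneurons of the external plexiform layer, at 138 ± 150 CPM. Of the n12-GC-6 cells, 63 had a Crhr1 UMI (26.6%) and 33 had both a Tpbg and a Crhr1 UMI, while 102 had Tpbg without Crhr1 and 72 had neither. At this depth a cell without a UMI cannot be called a cell without the transcript.

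**Figure D1:**
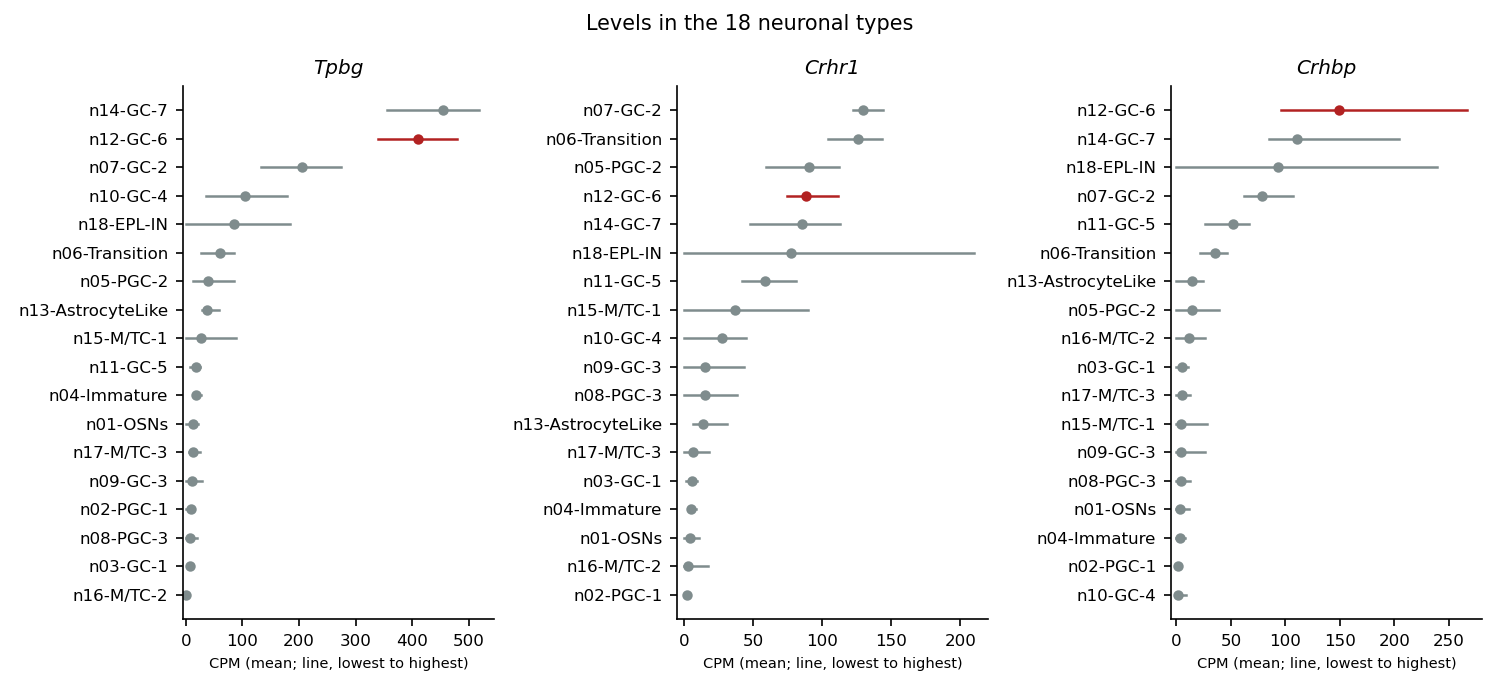
Levels of Tpbg, Crhr1 and Crhbp (CPM, linear axes) in the 18 neuronal types, ordered by mean. Points are means of 6 libraries, lines run from the lowest to the highest library, and n12-GC-6 is red. It is next to n14-GC-7 for Tpbg (409.5 against 455 CPM), at rank 4 for Crhr1 and highest for Crhbp.

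Across 10677 genes, the mean profile of n12-GC-6 was most like that of n11-GC-5 (Pearson r of log2(CPM + 10) of 0.967), followed by n07-GC-2 (0.903) and n10-GC-4 (0.894). This correlation is across genes, which are not independent, and the types share their libraries. Of the 3475 genes with at least 50 CPM in n12-GC-6, 74 (2.13%) were higher there than the mean of each of the other 17 types in all 6 libraries. Tpbg is not among them. For 35 of the 74, the next highest type was n11-GC-5. The same count ran from 1 in n14-GC-7 to 493 in n04-Immature, so it is not unusual among the types.

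The genes that stood furthest above every other type included regulators of transcription and splicing. Esrrg, a nuclear receptor that drives genes of oxidative metabolism, stood at 73.2 and 47.9 CPM in control, 63.5 and 50.1 CPM in naris occluded and 92.1 and 129 CPM in olfactory trained libraries, from 62 UMIs in all. The next type, n18-EPL-IN, had 27.9 ± 48.0 CPM, and its spread reached into the range of n12-GC-6. Mef2c, an activity-dependent transcription factor, was at 2195 ± 274 CPM, 2.02 times the n11-GC-5 mean of 1087 CPM. Rbfox1, which controls neuronal splicing, was at 247 ± 54.7 CPM against 137 CPM in n11-GC-5. For Mef2c all 6 libraries of n12-GC-6 exceeded the highest library of the next type, for Rbfox1 5 did, and for Esrrg 1 did.

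Further genes of this group act in signalling, the cytoskeleton and release. Ppp1r16b, a regulatory subunit of protein phosphatase 1, stood at 443 ± 72.0 CPM against 223 CPM in n11-GC-5. The actin-binding tropomyosin Tpm1 was at 459 ± 54.7 CPM against 251 CPM. Selm, a selenoprotein of the endoplasmic reticulum, was at 2647 ± 557 CPM against 1473 CPM in n14-GC-7. Cycs, the electron carrier cytochrome c, reached 873 ± 123 CPM against 493 CPM in n11-GC-5. Cplx1, a complexin that gates vesicle fusion, was at 794 ± 136 CPM against 483 CPM in n18-EPL-IN. Kcnab3, a beta subunit of potassium channels, the small GTPase genes Rap1b and Rasl11b, Wisp1, Tbc1d9, Phactr2 and Ankrd9 had ratios from 1.70 to 2.19. All 6 libraries exceeded the highest library of the next type for Ppp1r16b, Tpm1, Selm, Cycs, Wisp1 and Phactr2, but 1 did for Kcnab3.

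**Figure D2:**
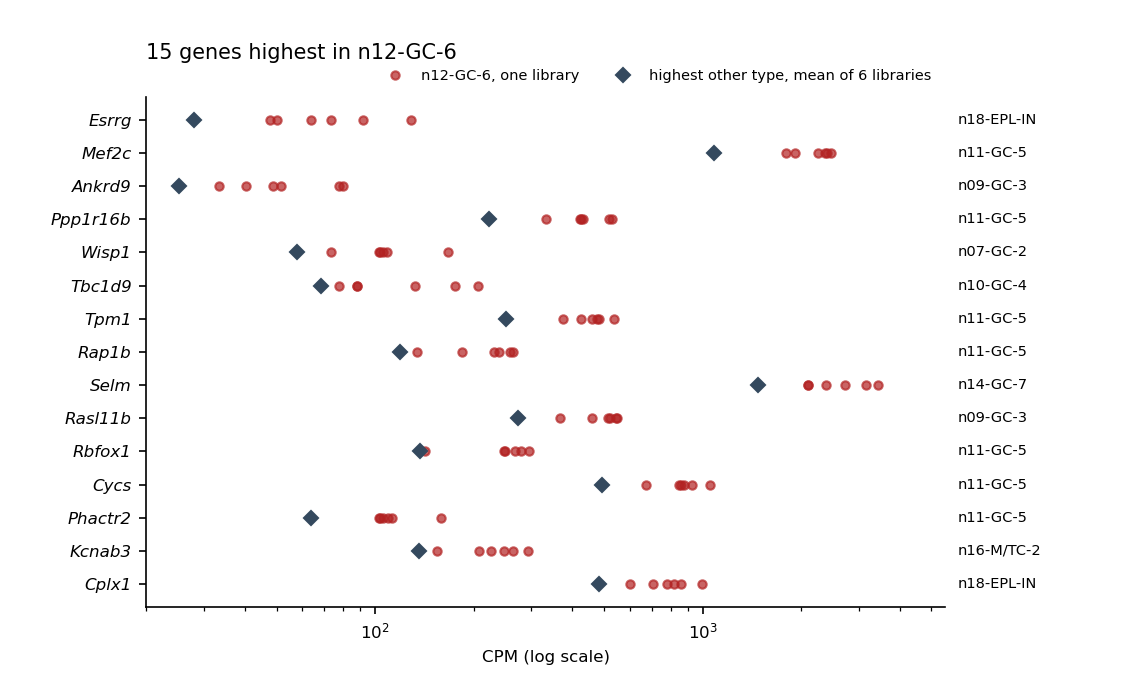
The 15 genes with the largest ratio of n12-GC-6 to the highest other type, on a logarithmic CPM axis. Red points are the 6 libraries of n12-GC-6, and the dark diamond is the mean of the highest other type, named at the right. The rule that chose these genes places every red point above its diamond. For Mef2c the points run from 1793 to 2459 CPM, and the n11-GC-5 mean is 1087 CPM.

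Gene lists were then compared with the 6 other granule clusters (n03, n07, n09, n10, n11 and n14). For each gene the log2 ratio of the n12-GC-6 mean to the median of those clusters was taken (5 CPM added to both), among genes with at least 20 CPM in any of the 7 clusters. Over the 8821 genes measured in this way, the median ratio was 0.02, 12.2% were higher in n12-GC-6 in 6 of 6 libraries and 8.22% were lower in 6 of 6. Ratios over 1 made up 3.92% and ratios under -1 made up 4.18%. Counts of list members are to be read against these shares. The 6 other clusters were shallower, with median UMIs from 690 in n14-GC-7 to 2110 in n11-GC-5, and had more mitochondrial UMIs, from 7.37% in n11-GC-5 to 17.4% in n07-GC-2 and 29.7% in n14-GC-7, and the part of this difference in the ratios was not tested beyond leaving out mitochondrial genes and shallow cells.

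The listed genes of energy metabolism were higher as a group. All 63 genes of oxidative phosphorylation and mitochondrial carriers were measured, their median log2 ratio was 0.50, and 50 were higher in 6 of 6 libraries while none was lower in 6 of 6. The largest ratios were those of Cycs (1.41), Atp5g1, a subunit of the ATP synthase ring (1267 ± 111 CPM, 1.36), Cox5a of cytochrome c oxidase (1331 ± 100 CPM, 1.26) and the ADP/ATP carrier Slc25a5 (514 ± 76.1 CPM, 0.95). Ndufa13 of complex I had the lowest, at -0.12. With mitochondrial genome UMIs left out of the totals, the median of this list was 0.44. Those UMIs themselves did not share its direction. Their median share of a cell was 6.35% in n12-GC-6, the lowest of the 18 types. Of 18 glycolysis genes, 12 were higher in 6 of 6 libraries and 2 lower, with a median of 0.60. Pfkp, the platelet-type phosphofructokinase, stood at 375 ± 81.4 CPM (1.80), Ldhb at 1663 ± 132 CPM (1.43), Eno2 at 478 ± 64.1 CPM (1.08) and Eno1 at 352 ± 40.8 CPM. The glucose transporter Slc2a1, at 3.90 CPM, and Aldoc, an astrocyte-enriched aldolase, at 95.8 CPM, were lower in 6 of 6. Among sodium pump subunits, Atp1b1 was higher in 6 of 6 libraries (0.71), while the mainly glial Atp1b2 was lower in 6 of 6 (65.5 ± 22.3 CPM, -1.62).

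The machinery of vesicle release followed the same direction. Of 28 measured members, 15 were higher in 6 of 6 libraries and none lower, with a median of 0.58, and 5 had a ratio over 1. Cplx1 had a ratio of 2.30, Napb, which helps to recycle SNARE complexes, 1.58 (613 ± 92.4 CPM), the SNARE protein Snap25 1.36 (2803 ± 170 CPM) and the vesicle protein Syn1 1.11 (331 ± 49.0 CPM). Rab3b, Doc2a and Unc13c, at 7.21 CPM or less, had the lowest ratios. Synaptotagmins are a family to which calcium sensors of vesicles belong, though not every member is one, and 12 were measured with a median of 0.26. Syt10 (309 ± 69.1 CPM against 80.3 CPM in the other granule clusters), Syt6 (479 ± 65.9 against 161 CPM) and Syt12 (48.8 ± 17.3 against 13 CPM) had their highest mean of all 18 types in n12-GC-6. Syt1, the main sensor of fast release, stood at 1833 ± 180 CPM (0.74). Syt16 had the lowest ratio, -1.13, at 7.81 CPM.

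GABA genes were split between synthesis and uptake. Gad1 (1.12), Gad2 (482.5 ± 69.2 CPM, 1.31) and Abat, which breaks GABA down (177.5 ± 29.1 CPM, 0.81), were higher in 6 of 6 libraries. Slc6a11, a transporter that takes GABA up from the extracellular space, was lower in 6 of 6, at 22.3 ± 17 CPM (-1.52), its lowest mean of the 18 types. The 11 measured subunits of the GABA-A receptor and its scaffold had a median of 0.02. Among them Gabrd, a subunit of extrasynaptic receptors, was at 75.2 ± 24.2 CPM (1.00).

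Glutamate receptors and their scaffolds differed member by member. Grin2a, the NMDA receptor subunit of mature synapses, was at 290.2 ± 48.0 CPM against 127 CPM in the other granule clusters, its highest mean of the 18 types. The AMPA receptor subunit Gria3 stood at 346 ± 62.6 CPM (0.95), Gria4 at 160.4 ± 33.1 CPM (0.68) and Grin2b at 788 ± 122 CPM (0.49), whereas Gria1 was lower in 6 of 6 libraries (169 ± 53.5 CPM, -0.68). The 12 measured subunits had a median of 0.28. Of 19 genes of the postsynaptic density, with a median of 0.39, the scaffold gene Dlgap1 (1.11) and the spine regulator Sipa1l1 (450.5 ± 79.4 CPM, 1.16) were highest in n12-GC-6 of all types. Homer2, which ties metabotropic receptors to calcium stores, was at 317 ± 78.1 CPM (1.44), although the 9 metabotropic receptors and Homer genes had a median of -0.29, with Grm4 lowest (35.0 ± 21.2 CPM, -0.92).

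Ion channels had no direction common to all lists. In 6 of 6 libraries, 4 voltage-gated potassium channels and 5 calcium channel genes were higher and none was lower. Among auxiliary potassium channel subunits 3 were higher and 3 lower, among other potassium channels 2 and 1, and among sodium channels 1 and 1. Among 21 voltage-gated potassium channels, with a median of 0.36, Kcna4, which carries a fast inactivating current, stood at 193 ± 37.2 CPM against 54.8 CPM, Kcnh7 at 291.5 ± 38.9 against 96.7 CPM and Kcnh8 at 27.1 ± 13.9 against 5.49 CPM. Of 9 auxiliary subunits (median -0.28), Kcnab3 was at 232 ± 48.3 CPM (1.57) and Dpp6, a partner of Kv4 channels, at 75.6 ± 20.3 CPM (-1.36). Of 12 other potassium channels (median -0.09), the calcium-activated Kcnn2 was at 102 ± 30.6 CPM (1.33) and the background channel Kcnk2 at 2.35 CPM (-2.03), its lowest mean of the 18 types. Scn1a was the sodium channel with the highest ratio (148 ± 56.5 CPM, 1.26) and Scn2b, an auxiliary subunit at 2.14 CPM, had the lowest of the 7 measured (-2.48). The 15 calcium channel genes had a median of 0.46, led by the auxiliary subunits Cacna2d3 (56.4 ± 19.6 against 11 CPM) and Cacnb4 (239 ± 38.9 against 114 CPM).

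Calcium signalling, spine and activity genes were higher for part of each list. Of 36 measured genes of calcium and calmodulin signalling (median 0.42), 15 were higher in 6 of 6 libraries and 2 lower. Pcp4 and Pcp4l1, small proteins that bind calmodulin or resemble such a protein, stood at 5149 ± 1124 and 1428 ± 158 CPM (1.55 and 1.77), and the kinase gene Camkk2 at 155 ± 48.9 CPM (1.76). The mean of Pcp4 was higher still in n11-GC-5 (6900 ± 573 CPM) and n10-GC-4 (5985 ± 2275 CPM). Calb2, which encodes the calcium buffer calretinin of another granule cell subset, was at 95.5 ± 64.5 CPM against 340.5 CPM, the lowest mean of all 18 types, and Nrgn at 16.7 ± 10.1 CPM (-1.58). Of 26 genes of the actin cytoskeleton and spines (median 0.26), 11 were higher and 1 was lower in 6 of 6 libraries. Tiam2, an activator of the GTPase Rac, was at 365 ± 84.4 CPM (2.25), Tmod1 at 238 ± 66.2 CPM (2.12), Actn2 at 52.4 ± 28.0 CPM (2.18) and Tpm1 had a ratio of 1.65, while Marcks was lower (199 ± 30.9 CPM, -0.87).

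Of 35 measured genes known to be induced by neuronal activity, 12 were higher in 6 of 6 libraries and 1 lower, with a median of 0.44, and 10 had a ratio over 1. Dusp14, a phosphatase, stood at 173 ± 69.2 CPM against 29.8 CPM, and Bdnf, a growth factor, at 73.7 ± 37.7 against 11 CPM from 58 UMIs. Nptx2, a secreted organizer of synapses, was at 63.6 ± 31.3 against 13.1 CPM, and the transcription factor gene Egr4 at 43.9 ± 35.0 against 7.58 CPM, although 1 library had no Egr4 UMI. Inhba, Nppa and Gadd45b, at 6.21 CPM or less, had the lowest ratios. All these levels come from cells that had been dissociated, and the part that dissociation had in them was not tested.

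Immature neuron genes were lower. Of 24 measured, 9 were lower in 6 of 6 libraries and 1, Tubb2a, was higher, with a median of -0.41. Igfbpl1 stood at 14.4 ± 6.5 CPM against 51.1 CPM in the other granule clusters, Marcksl1 at 125 ± 61.1 against 345 CPM and Nnat at 74.0 ± 39.6 against 176 CPM. In n04-Immature, the same genes were at 1544, 1348 and 1362 CPM. Among 45 transcription factors and RNA regulators of interneurons (median 0.11), 14 were higher and 8 lower in 6 of 6 libraries. Rbfox1 (1.68), Mef2c (1.56), Lmo3 (1.28) and Klf9 (1.25) had the highest ratios. Id2, an inhibitor of differentiation factors, was at 49.5 ± 18.7 CPM (-2.41), and the nuclear factors Nfix and Nfib at 3.31 ± 5.77 and 37.4 ± 20.9 CPM (-2.20 and -1.82).

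Surface and secreted molecules had members far apart in both directions. Of 35 synaptic adhesion genes (median -0.05), Tpbg had the largest ratio (2.64), followed by Lrrtm3 (199 ± 38.1 CPM, 1.31), and Nlgn1, a neuroligin, the smallest (19.2 ± 17.5 CPM, -1.52). The 17 measured neuropeptide precursors had a median of -0.57, with Trh (17.5 ± 10.9 CPM) and Cck (26.9 ± 19.1 CPM) lower in 6 of 6 libraries and the granin Scg2 higher (854 ± 169 CPM, 1.16). Of 16 receptors for monoamines, acetylcholine, cannabinoids and peptides (median -0.26), the muscarinic receptor Chrm2 was at 191 ± 50.1 CPM against 55.9 CPM and the adrenergic receptor Adra1a at 37.7 ± 14.7 against 11.9 CPM, while the cannabinoid receptor Cnr1 was at 1.63 CPM (-1.58). Of 24 granule subtype markers (median -0.27), 7 were higher and 6 lower in 6 of 6 libraries. The 28 genes that the study listed for this cluster were all higher in 6 of 6 libraries, but they were chosen on these samples and are not independent evidence.

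**Figure D3:**
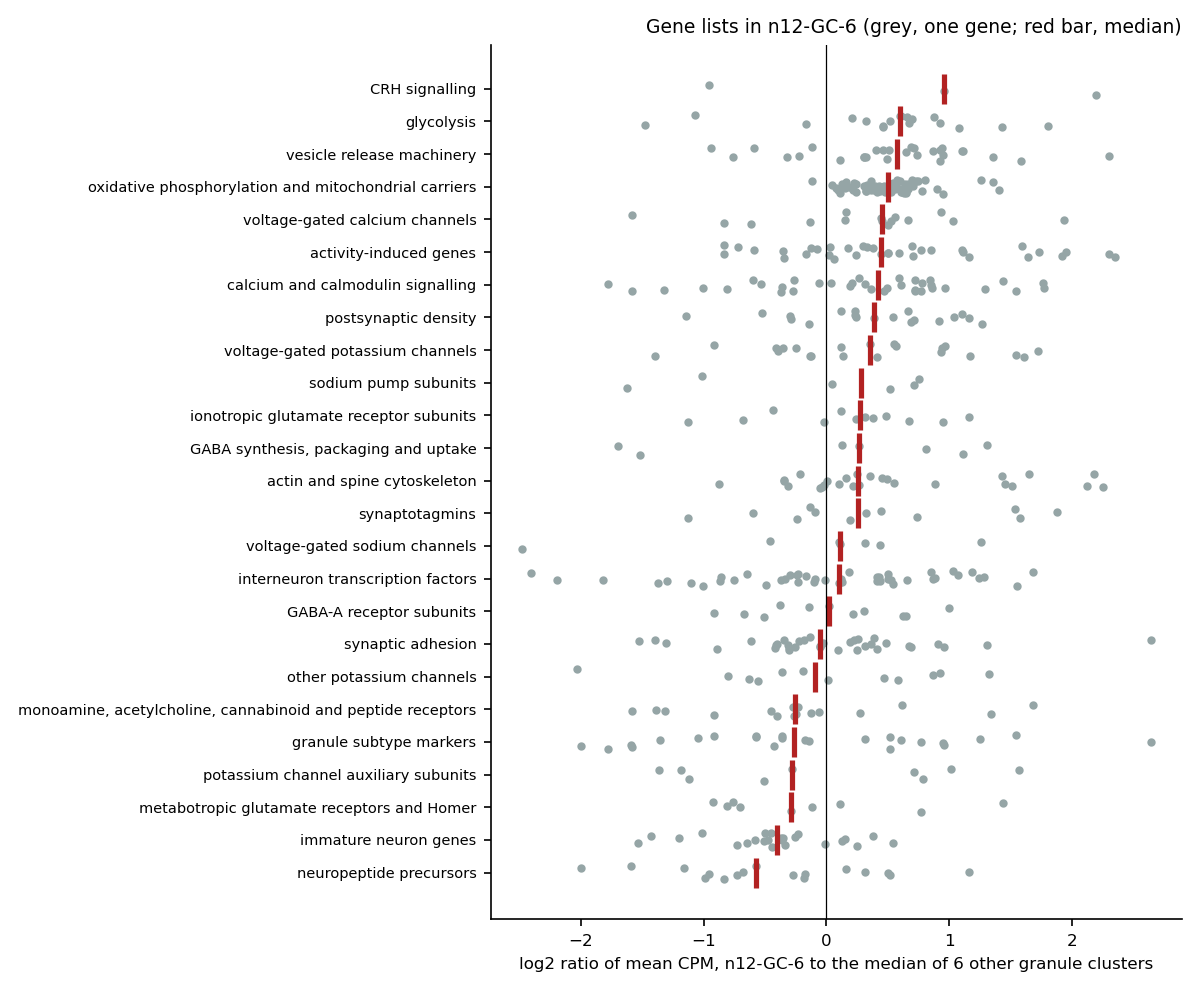
Log2 ratio of the n12-GC-6 mean to the median of 6 other granule clusters for each measured gene (grey) of 25 lists, ordered by the median (red bar). The vertical line marks equal levels. Oxidative phosphorylation genes lie between -0.12 and 1.41 with a median of 0.50, and the medians of immature neuron genes (-0.41) and neuropeptide precursors (-0.57) lie lowest.

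Because n11-GC-5 was the most similar type but shallower, both were compared again in cells with at least 3000 UMIs, a choice made after seeing the data. This left 177 n12-GC-6 cells (74.7%) and 265 n11-GC-5 cells (15.9%), at least 16 of each type in a library. Among 3922 genes compared, 337 were higher and 283 lower in n12-GC-6 in 6 of 6 libraries, and 79 and 68 of them by more than 1 on the log2 scale. Tpbg stood at 410.1 ± 56.3 CPM against 10.6 ± 8.63 CPM, Bdnf at 74.7 ± 51.7 against 4.45 ± 3.99 CPM and Esrrg at 82.6 ± 41.4 against 7.48 ± 4.35 CPM. Their lowest n12-GC-6 libraries lay above the highest n11-GC-5 libraries. The transcripts 2900055J20Rik and 9330158H04Rik, and Galntl6, a glycosyltransferase gene, were also among the 6 with the largest ratio. In the other direction, Calb2 was at 101 ± 70.2 against 1739 ± 379 CPM, and Scgn (secretagogin) and Necab2, 2 further calcium-binding proteins, at 36.4 ± 25.6 against 368 ± 103 CPM and at 6.71 ± 6.09 against 112 ± 47.5 CPM. Cpne6, a copine that binds membranes with calcium, stood at 136 ± 77.5 against 940.0 ± 198 CPM, Trh at 18.5 ± 13.5 against 152 ± 93.5 CPM and Amigo2 at 4.70 ± 6.11 against 61.4 ± 23.4 CPM.

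In these cells, which share a minimum but not an equal depth, 24 of 63 oxidative phosphorylation genes were higher in n12-GC-6 in 6 of 6 libraries and none was lower (median 0.26), and 13 of 24 immature neuron genes were lower (median -0.65). Of all 8821 measured genes, 426 were higher and 444 lower in 6 of 6 libraries, with a median of -0.04. The medians of vesicle release genes (0.27), synaptotagmins (0.62) and sodium pump subunits (0.63) also stayed above 0. The medians of calcium and calmodulin signalling (0.01), actin and spine genes (-0.04), sodium channels (-0.01) and the postsynaptic density (0.08) lay near 0. The 35 activity-induced genes had a median of 0.18, with 3 higher and 3 lower in 6 of 6 libraries.

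**Figure D4:**
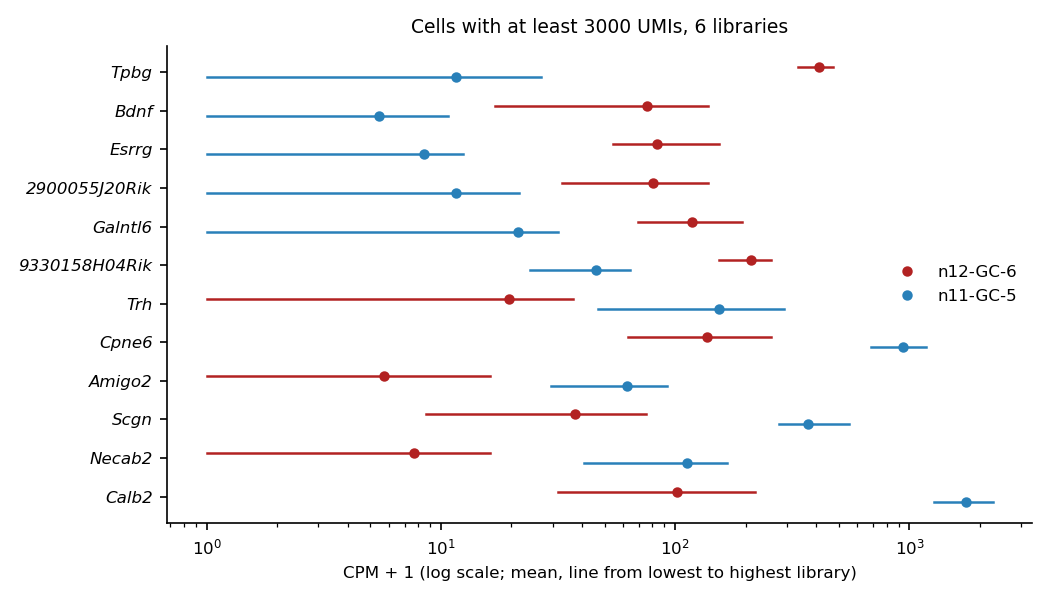
Levels of the 6 genes furthest apart in each direction between n12-GC-6 (red) and n11-GC-5 (blue), from cells with at least 3000 UMIs. The axis is CPM + 1 on a logarithmic scale, points are means of 6 libraries and lines run from the lowest to the highest library. Tpbg and Calb2 lie apart in opposite directions with no overlap between the types.

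To ask whether activity alters the makeup of adult-born neurons, the percentage of n12-GC-6 among all cells of the 12 clusters that the study took as adult-born was set side by side for the 3 conditions. Control libraries had 1.75% and 1.48%, naris occluded libraries 1.58% and 1.23%, and olfactory trained libraries 1.59% and 0.967%. The means were 1.61% ± 0.189, 1.41% ± 0.250 and 1.28% ± 0.439 (SD, n = 2), and the libraries of the groups overlapped. The lowest share, from 22 cells, has an exact Clopper-Pearson 95% interval of 0.607% to 1.46%. By edgeR's quasi-likelihood test the log2 difference was -0.21 between naris occluded and control (adjusted p = 0.764), -0.32 between olfactory trained and control (adjusted p = 0.832) and -0.10 between olfactory trained and naris occluded (adjusted p = 0.899). Without a library these differences ranged from -0.40 to -0.03, from -0.75 to -0.03 (the ends being without olfactory trained replicates 1 and 2) and from -0.53 to 0.19. No difference in share was detectable with these numbers of cells. From the same cells, by a chi-square test on pooled cells, the study also reported no change of this cluster. It cites earlier work in which Tpbg cells arose earlier in life and were little replaced by adult neurogenesis.

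Within n12-GC-6, the summed counts of each library were tested between conditions by edgeR's quasi-likelihood method, with Benjamini-Hochberg adjustment over 2988 genes. The same 6 libraries enter all 3 comparisons. Library values in these comparisons are CPM scaled by TMM factors. Tpbg stood at 443 and 431 CPM in control, 468 and 354 CPM in naris occluded and 341 and 419 CPM in olfactory trained libraries. Its log2 change was -0.08 ± 0.21 (SE) under occlusion and -0.24 ± 0.22 under training (adjusted p by edgeR 1.00 and 0.942). Crhr1 stood at 83.6 and 114 CPM, 89.6 and 92.6 CPM, and 75.0 and 76.2 CPM in the same order, with log2 changes of -0.07 ± 0.42 and -0.34 ± 0.44 (adjusted p by edgeR 1.00 and 0.975). Crhbp stood at 133 and 97.6 CPM, 96.4 and 269 CPM, and 162 and 139.6 CPM, and was not called in any comparison. Tpbg and Crhr1 were lower in the 2 olfactory trained than in the 2 control libraries without overlap, as were 17.4% of all genes tested, and neither change was detectable by the test.

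Between naris occluded and control, 1 gene of 2988 was called (0.0335%), and 154 had an unadjusted p under 0.05. S100a5, a calcium-binding protein of olfactory sensory neurons whose expression depends on odor input, stood at 413 and 358 CPM in control and 124 and 67.3 CPM in naris occluded n12-GC-6, and fell by 1.98 ± 0.32 on the log2 scale (adjusted p by edgeR 1.13e-04). The groups did not overlap, as held in the same direction for 16.5% of all genes tested. DESeq2 gave 0 calls, and without each library in turn the log2 change of S100a5 lay between -2.52 and -1.65. Its mean in n12-GC-6 was the lowest of the 18 types, against 20491 CPM in n01-OSNs, and it was lower under occlusion in 18 of 18 types, with a log2 change of -1.92 in the 6 other granule clusters together (adjusted p by edgeR 0.00145), where 4 genes were called (0.0354%). The difference between n12-GC-6 and those clusters was -0.13 ± 0.33 (adjusted p by edgeR 1.00). Gng13, another gene of sensory neurons, stood at 221 and 203 CPM in control and 172 and 261 CPM in naris occluded libraries. The part of free sensory neuron RNA in this result was not tested.

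The next genes were not called in the main fit, but Fabp7, Herc1 and Ptn were called in cells with at least 2000 UMIs. Malat1 was called without a filter on low counts. Herc1, a large ubiquitin ligase, stood at 295 and 317 CPM in control and 124 and 152 CPM in naris occluded libraries, Tm2d2 at 98.4 and 73.2 CPM and 220.4 and 219 CPM, and the nuclear RNA Malat1 had a log2 difference of -0.39 ± 0.10 (adjusted p by edgeR 0.0988, 0.131 and 0.179). Ptn, a secreted growth factor, and Fabp7, a fatty acid carrier of glia, were high in 1 naris occluded library: Ptn stood at 282 and 639.7 CPM against 236 and 179 CPM in control, and Fabp7 at 324 and 639.7 CPM against 241 and 212 CPM. That library, naris occluded replicate 2, also held 1719 CPM of summed ensheathing cell markers, against 501 CPM in replicate 1. Npy carries most of that sum (386 and 1397 CPM in replicates 1 and 2 after TMM scaling). Without a library, the log2 difference from control ranged from 0.40 to 1.58 for Ptn and from 0.49 to 1.48 for Fabp7. The part of glial RNA in these values was not tested. By list, the 15 tested immature neuron genes had a median log2 difference of 0.39 under occlusion, 14 activity-induced genes of -0.35 and 20 vesicle release genes of -0.18, with no member called in any of the 3, against 0.003 over all genes tested. Of the immature neuron genes, 9 of 15 were higher without overlap, against 16.5% of all genes.

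Between olfactory trained and control, 3 genes were called (0.1% of those tested), and 187 had an unadjusted p under 0.05. Hspa8, a constitutive heat shock chaperone that also strips clathrin from vesicles, stood at 1166 and 1123 CPM in control and 2170.4 and 1789.7 CPM in olfactory trained libraries and rose by 0.80 ± 0.17 on the log2 scale. R3hdm1, an RNA-binding protein gene, stood at 718 and 822 CPM in control and 1501 and 1244 CPM in olfactory trained libraries and rose by 0.85 ± 0.19. Selm, one of the genes highest in n12-GC-6, stood at 3187 and 3491 CPM in control and 2107 and 2069 CPM in olfactory trained libraries and fell by 0.67 ± 0.15. The adjusted p by edgeR was 0.0481, 0.0481 and 0.0485, close to the threshold. The groups of these 3 genes did not overlap, but neither did those of 17.1% (higher) and 17.4% (lower) of all genes tested. None of the 3 was called by DESeq2, with the replicate number (the sex of the pool) as a block, or by edgeR without olfactory trained replicate 1 (2 other calls), control replicate 1 (1) or control replicate 2 (3), and Selm was also lost without olfactory trained replicate 2 and without a filter on low counts. In the other granule clusters R3hdm1 was also called (0.76, adjusted p by edgeR 0.0393) among 18 genes (0.159%), while Hspa8 had a log2 difference of 0.64 (adjusted p by edgeR 0.126) and Selm of -0.23 (0.782). By the ratio of means, Hspa8 was higher after training in 17 of 18 types, R3hdm1 was higher in 16 and Selm was lower in 17. The log2 ratio of Selm was -0.65 in n12-GC-6, -0.45 in n14-GC-7 and -0.36 in n11-GC-5.

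Knop1, Pgap1, Ptgds, Pcp4 and Oxr1 came next and were not called in the main fit. Ptgds was called without a filter on low counts and in cells with at least 2000 UMIs. Pcp4 was called with total-count scaling and with the libraries of the 2 conditions alone, and Knop1 with at least 10 UMIs in every library. Without a library, the log2 difference of Ptgds ranged from -2.24 to -0.03. Pcp4, the abundant calmodulin regulator, stood at 4004 and 4630.0 CPM in control and 6511 and 6245 CPM in olfactory trained libraries, with a log2 difference of 0.57 ± 0.15 (adjusted p by edgeR 0.103). Of the 63 oxidative phosphorylation genes, 56 were lower in olfactory trained than in control libraries by a median of -0.13, with none called, and 26 were lower without overlap. Over all genes tested, 1489 of 2988 were lower, with a median of 0.002, and 17.4% were lower without overlap. Both tested ensheathing cell markers (median -0.79) and the 1 red blood cell marker (-1.48) were also lower without overlap in this comparison, and their part was not tested. The 14 activity-induced genes had a median of 0.32, the 22 calcium and calmodulin genes of 0.16 and the 15 immature neuron genes of -0.23, with 8 of the last lower without overlap and again none called.

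The comparison of olfactory trained with naris occluded gave 12 calls (0.402%), 8 higher and 4 lower, and 215 genes with an unadjusted p under 0.05. With the replicate number, which is also the sex of the pool, as a block, 6 calls were left (Cd81, Desi1, Fabp7, Hspa8, R3hdm1 and S100a5), and with the libraries of these 2 conditions alone 0 were left. Activity and synapse genes were among the 12, but Egr1, Homer1 and Syn2 are not among the 6. Egr1, an immediate early transcription factor, stood at 117 and 92.6 CPM in naris occluded and 312 and 203 CPM in olfactory trained libraries, with control at 207 and 130 CPM, and rose by 1.37 ± 0.32 on the log2 scale (adjusted p by edgeR 0.0221). Homer1, a scaffold of metabotropic glutamate receptors with a short form that activity induces, stood at 75.8 and 75.8 CPM in naris occluded and 231 and 203 CPM in olfactory trained libraries and rose by 1.53 ± 0.37 (adjusted p by edgeR 0.0263). Syn2, a vesicle-binding synapsin, stood at 179 and 143 CPM against 364 and 330.0 CPM and rose by 1.11 ± 0.27 (adjusted p by edgeR 0.0263). Egr1 and Homer1 were 2 of 14 tested activity-induced genes, of which 12 were higher and 2 lower, with a median log2 difference of 0.55 against -0.01 over all genes, and Syn2 was the 1 of 20 vesicle release genes called. Of the 15 immature neuron genes, 13 were lower (median -0.36), 8 of them without overlap against 17.1% of all genes, and none was called. Groups that do not overlap with olfactory trained higher made up 17.8% of all genes tested and 6 of those 14.

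The other genes higher after training were S100a5 (1.81 ± 0.33), R3hdm1 (1.07 ± 0.20), Hspa8 (0.87 ± 0.18), Desi1, a peptidase gene of the SUMO pathway (1.34 ± 0.29), and the protocadherin gene Pcdh17 (1.11 ± 0.27), with adjusted p by edgeR between 0.00141 and 0.0263. S100a5 stood at 456 and 152 CPM in olfactory trained libraries, so that 1 of them was near the naris occluded level of 124 CPM, and its difference was 0.62 without olfactory trained replicate 1. Pcdh17 stood at 138 and 303 CPM in naris occluded and 525 and 355 CPM in olfactory trained libraries, and its difference was 0.61 without naris occluded replicate 1, 0.72 without olfactory trained replicate 1 and 1.75 without naris occluded replicate 2. For S100a5, R3hdm1, Hspa8, Desi1, Egr1 and Homer1, the 6 other granule clusters were called in the same direction. Syn2 was not among them, with a log2 difference of 1.11 in n12-GC-6 and -0.13 in the other granule clusters, but the difference of 1.28 ± 0.30 missed the threshold (adjusted p by edgeR 0.0655).

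The genes lower after training than under occlusion were Fabp7 (-1.46 ± 0.28), Ptn (-1.22 ± 0.28), Cd81 (-1.20 ± 0.25) and Snn (-0.99 ± 0.23), with adjusted p by edgeR between 0.0031 and 0.0207. The tested markers of ensheathing cells (2 of 2, median -1.30), astrocytes (2 of 2, -0.52) and red blood cells (1 of 1, -1.65) were lower as well, none of them called, and their part in these results was not tested. Fabp7 stood at 219 and 76.2 CPM and Ptn at 214 and 152 CPM in olfactory trained libraries. The tetraspanin Cd81 stood at 372 and 530.3 CPM in naris occluded and 208 and 165 CPM in olfactory trained libraries. Snn (stannin) had 489 and 505 CPM in naris occluded, 359 and 358 CPM in control and 254 and 241 CPM in olfactory trained libraries, with replicates close to each other. Snn is also 1 of the 28 genes that the study listed for the cluster. Without naris occluded replicate 2, the differences of Fabp7 and Ptn were -0.90 and -0.54, and without olfactory trained replicate 1 that of Fabp7 was -2.62. Without naris occluded replicate 2, the library with the highest Npy, Hspa8, Pcdh17, R3hdm1 and S100a5 were left of the 12, among 10 calls. Without olfactory trained replicate 1, Fabp7 was left, among 4 calls. DESeq2 gave 0 calls.

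**Figure D5:**
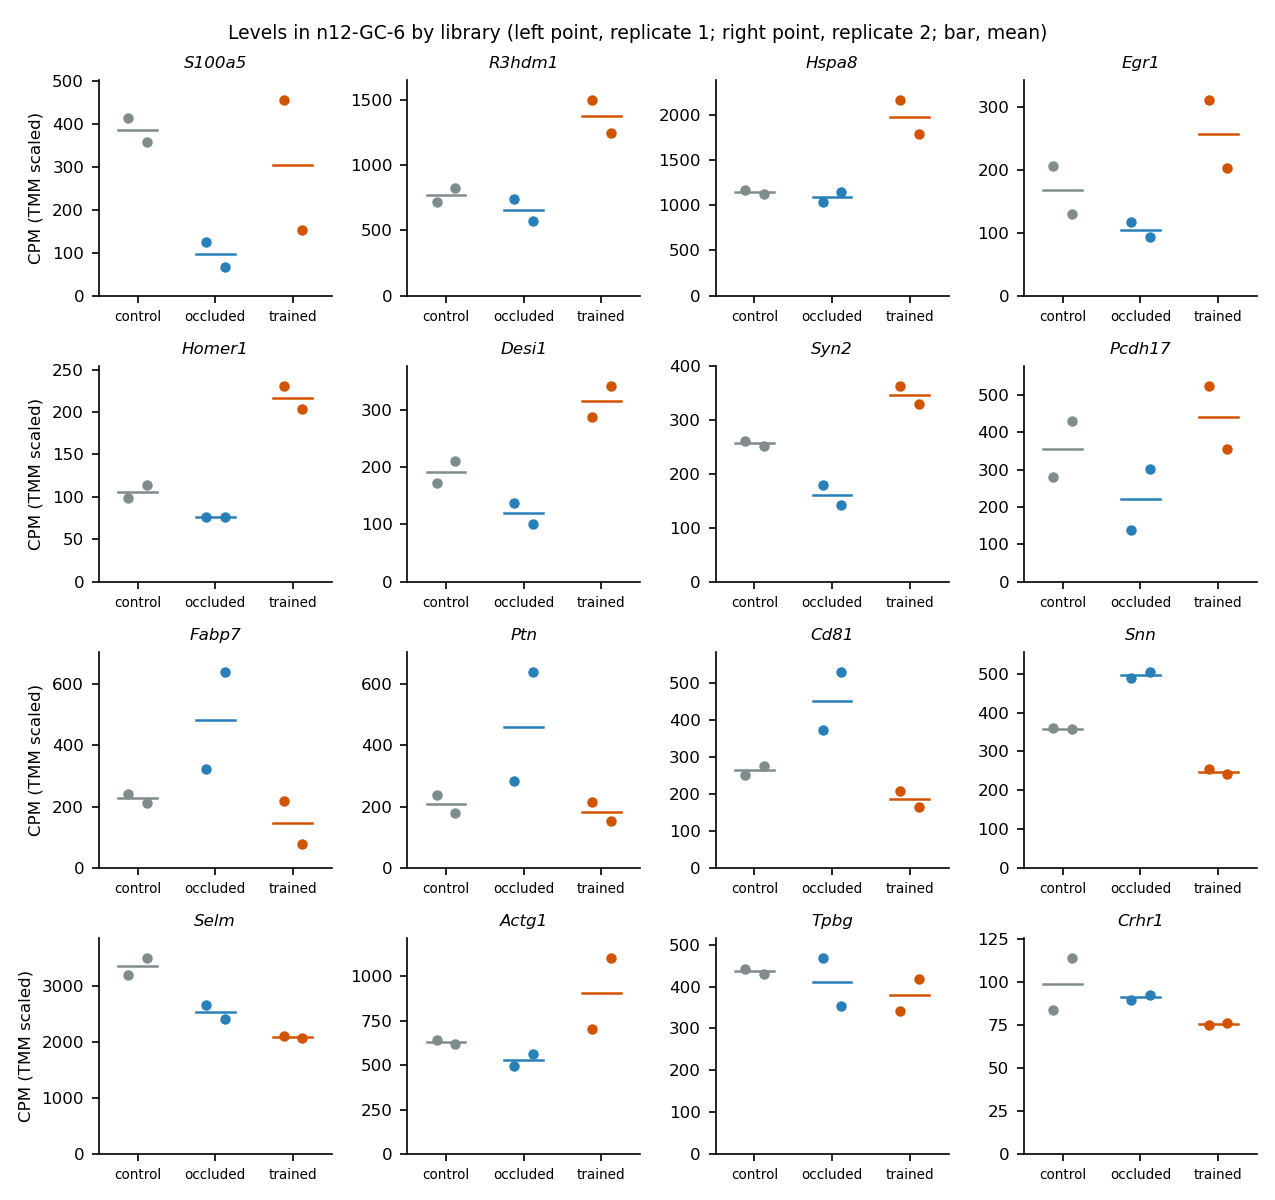
Levels of 16 genes in n12-GC-6 by library (CPM after TMM scaling, axes from 0), with replicate 1 at the left, replicate 2 at the right and the group mean as a bar. S100a5 is at 124 and 67.3 CPM in the naris occluded libraries, the group means of Egr1, Homer1 and Syn2 are lowest in naris occluded and highest in olfactory trained, and Tpbg and Crhr1 were called in no comparison.

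To ask whether an effect of condition was particular to n12-GC-6, its change was set against that of the 6 other granule clusters in 1 fit with the library as a block. Between naris occluded and control, 2 of 9906 genes differed (0.0202%), Hbb-bs and Fabp7. For Hbb-bs the rise in the other clusters came from n11-GC-5 (73.0 to 1455 CPM), and for Fabp7 n09-GC-3 and n10-GC-4 had log2 ratios like that of n12-GC-6 (1.27, 1.09 and 1.095). Between olfactory trained and control, edgeR called 0 genes (0%), with 392 at an unadjusted p under 0.05, and DESeq2 also called 0 there. Between olfactory trained and naris occluded, a comparison added after seeing the data, 2 genes differed (0.0202%), Actg1 and Fabp7. DESeq2 gave 0 calls in these 2 comparisons as well, and a replicate block in place of the library block gave 1 (Hbb-bs) and 0. For Tpbg, the change under occlusion was -0.72 ± 0.23 in the other granule clusters (adjusted p by edgeR 0.512), and the difference of 0.61 ± 0.25 from n12-GC-6 was not called (adjusted p by edgeR 0.93). In the other granule clusters alone, 318 of 11298 genes were called between olfactory trained and naris occluded (2.81%), from many more cells than the 148 of n12-GC-6 in those groups, so these counts of calls do not compare the size of the effect.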

How the data were processed

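RNA of single cells dissociated with papain from olfactory bulbs was captured with 10x Chromium Single Cell 3′ chemistry and sequenced on a NextSeq500. The authors produced the deposited table of raw UMI counts with Cell Ranger 2.0.0 (build mm10, per the submitters' processing notes) and clustered the cells with Seurat 2.2.1 after regressing out UMIs and mitochondrial genes, requiring at least 200 genes a cell and removing doublets. No further doublet filter was applied. Library, cluster and mitochondrial fraction of every cell were used as deposited. Where the prefix of a cell name and the annotation named different trained libraries, the annotation was followed. Of 52549 barcodes and 18560 genes in the raw table, no gene lacked a name.

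Counts were summed per type and library and scaled to CPM. Conditions were compared with edgeR 4.0.16 (R 4.3.3) quasi-likelihood tests on all 6 libraries, with TMM factors, filterByExpr and an adjusted p threshold of 0.05, and shares of cells with the same test and the adult-born neurons as offset. DESeq2 1.42.0 was an alternative. On simulated data for olfactory trained against control, with 200 genes changed, 43% were called at a log2 change of 1 (2754 genes, 7 false calls) and 88.5% at 2 (2725 genes, 9 false calls). The depth of 77740 to 204794 UMIs a library limits tests to 2988 genes.

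The cells, gene lists and tests were chosen with earlier results of these data known. Named genes are Tpbg and Crhr1, the 15 genes with the largest ratio to the next type, up to 4 members of each list with the largest and 3 with the smallest ratio, the genes called between conditions, at most 10 in each direction, and the 5 with the smallest p where fewer than 5 were called. Gng13 and the genes furthest apart between n12-GC-6 and n11-GC-5 were chosen after their values were seen. Alternatives were a replicate block, DESeq2, total-count scaling, other filters, fewer cells by UMIs, other totals and clusters, and leaving out each library. Some members of the lists are not reported here.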

Additional observations from a re-analysis of the deposited data

Results flagged for a closer look

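Differences between conditions were set against the same differences in the 6 other granule clusters, and 3 genes differed by the test of that difference, 1 of them in 2 comparisons. Each value is the log2 change in n12-GC-6 minus that in the other granule clusters, with its standard error.

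Hbb-bs, a hemoglobin gene of red blood cells, differed by -2.22 ± 0.40 between naris occluded and control (adjusted p by edgeR 3.68e-04). In n12-GC-6 it stood at 128 and 57.0 CPM in control and 145 and 75.8 CPM in naris occluded libraries, a log2 change of 0.18, whereas in the other granule clusters together it rose by 2.43. That rise came from n11-GC-5, where the mean went from 73.0 to 1455 CPM (log2 ratio 4.23), while the ratios of the 5 others lay between 0.26 and 0.75 and that of n12-GC-6 was 0.27, so the difference does not hold for granule clusters in general. Against n03-GC-1 alone it was -0.17 (adjusted p by edgeR 0.984). The call was lost without naris occluded replicate 2 and without control replicate 1 (adjusted p by edgeR 0.137 and 1.00), and the part of free red blood cell RNA was not tested.

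Fabp7, a fatty acid carrier of glia and precursors, differed by 1.09 ± 0.24 between naris occluded and control (adjusted p by edgeR 0.0438) and by -1.24 ± 0.27 between olfactory trained and naris occluded (adjusted p by edgeR 0.0302). Its naris occluded libraries stood at 324 and 639.7 CPM, and without a library the first difference ranged from 0.67 to 1.40 and the second from -2.58 to -0.85, each with adjusted p by edgeR up to 1.00. The first stayed called only without naris occluded replicate 1, and the second only without that library or olfactory trained replicate 1. The ratio of means under occlusion was as large in n09-GC-3 (log2 1.27) and n10-GC-4 (1.09) as in n12-GC-6 (1.095), and it was 0.36 or less in the other 4 granule clusters. The higher of the 2 libraries also had the highest sum of ensheathing cell markers, 1719 CPM, most of it Npy, against 1108 CPM in its other granule clusters, and the part of glial RNA was not tested.

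Actg1, which encodes cytoplasmic gamma-actin, differed by 0.98 ± 0.20 between olfactory trained and naris occluded (adjusted p by edgeR 0.0152), a comparison chosen after seeing the data. In n12-GC-6 it stood at 496 and 564 CPM in naris occluded and 704 and 1104 CPM in olfactory trained libraries, a log2 change of 0.73, against -0.23 in the other granule clusters. The difference kept its direction but lost its call in every fit that left out a library (0.795 to 1.1, lowest adjusted p by edgeR 0.0513).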

How the results depend on the processing

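Replicates 1 and 2 are pools of males and of females. Over 2988 genes, the deviations of same-numbered libraries correlated at 0.0457 (naris occluded and olfactory trained), 0.139 (naris occluded and control) and 0.102 (olfactory trained and control). The main fits did not pair the libraries by number, so any difference between the sexes stays in their spread. These correlations cannot show that such a difference is absent. With the replicate number as a block, calls in n12-GC-6 between olfactory trained and control went from 3 to 0 and between olfactory trained and naris occluded from 12 to 6, and S100a5 stayed the 1 call between naris occluded and control. In the comparison with the other granule clusters, a replicate block in place of the library block gave 1 and 0 calls. DESeq2 gave 0 calls in all 3 comparisons and in both differences from the other granule clusters.

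Without a filter on low counts, naris occluded against control gave 2 calls and olfactory trained against naris occluded 7. Requiring 10 UMIs in every library gave 0 for the former, since S100a5 was then not tested, and cells with at least 2000 UMIs gave 4. With the libraries of the 2 conditions alone, olfactory trained against naris occluded gave 0. Against n03-GC-1 alone the differences gave 1 and 6 calls, and with cells of at least 1000 UMIs 1 and 0. Leaving out 1 library gave 2 to 11 calls for naris occluded against control, 1 to 8 for olfactory trained against control and 4 to 23 for olfactory trained against naris occluded, and for the differences from the other granule clusters 0 to 10, 0 to 1 and 0 to 10. Because the replicate number is also the sex of the pool, a fit without a library compares groups that are not balanced for sex. Within n12-GC-6, Xist was called only in such fits. The cause of these shifts was not tested.

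The share of n12-GC-6 between olfactory trained and naris occluded turned to 0.16 with TMM factors over clusters and to 0.27 in cells of at least 1000 UMIs, and ranged from -0.53 to 0.19 without a library, never called. Without a library, Tpbg ranged from -0.31 to 0.0937 under occlusion and from -0.36 to -0.06 under training, and Crhr1 from -0.31 to 0.12 and from -0.58 to -0.15. Highest genes numbered 231 in the control libraries alone, of which 63 were shared. Medians against n11-GC-5 turned to 0.0797 (postsynaptic density), -0.0128 (sodium channels), 0.0113 (calcium and calmodulin) and -0.0419 (actin and spine) in cells of at least 3000 UMIs, and without mitochondrial genes the medians of GABA-A receptors and interneuron transcription factors turned to -0.0682 and -0.0973. The uncalled changes of Tpbg and Crhr1 under occlusion thus turned direction, without naris occluded replicate 2 and control replicate 2. Of the alternatives run for the other named genes, none reversed a direction, 227 kept the call or its absence, 106 lost a call and 36 gained one. Few cells, at most 56 in a library, limit the depth for low genes.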
